A study of Mus musculus with 12 samples.

Results

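The histone deacetylases described here are 10 genes, Hdac1 to Hdac9 and Hdac11, taken by gene symbol from the tables of all 12 libraries. All 10 were found and all 10 passed the low-count filter, among 16288 genes listed in at least 1 library and 12545 that passed the filter. By the usual classification Hdac1, Hdac2, Hdac3 and Hdac8 are class I, Hdac4, Hdac5, Hdac7 and Hdac9 class IIa, Hdac6 class IIb and Hdac11 class IV. Hdac11 is therefore outside the classes I and II under which the genes are grouped here, and Hdac10, the other class IIb gene, is not a member although the tables list it. RNA came from C2C12 cells, an immortalized mouse myoblast line, without any engineered allele. In the groups labelled GM the cells were proliferating in medium with 10% serum and were treated for 12 h. In the groups labelled DM 24h and DM 48h the cells had been pretreated for 12 h and then moved at 90% confluence to low-serum medium with insulin, in which myoblasts differentiate, for 24 h or 48 h. At each stage 1 group received DMSO, the vehicle, and the other 50 uM PFI-3, a ligand of the bromodomains of the SWI/SNF ATPases BRM and BRG1 (genes Smarca2 and Smarca4) and of PB1 (gene Pbrm1). Treatment was renewed every 24 h. Each of the 6 groups has 2 libraries, A and B, which the series calls biological duplicates, and the cells are all of 1 line.

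Histone deacetylases remove acetyl groups from lysines of histones and other proteins. Hdac1 and Hdac2 are the catalytic subunits of the NuRD, Sin3, CoREST and MiDAC corepressor complexes, and Hdac3 works in a separate nuclear receptor corepressor complex. Class IIa proteins have little catalytic activity of their own. They bind MEF2 transcription factors and repress muscle genes in myoblasts, and calcium-dependent kinases phosphorylate them so that they leave the nucleus with 14-3-3 proteins. Hdac6 acts mainly in the cytoplasm on tubulin and other proteins, and Hdac11 is known mainly for removing long-chain fatty acyl groups. SWI/SNF complexes containing BRG1 or BRM open chromatin at muscle genes during differentiation, and their bromodomains recognize acetylated lysines.

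The total of expected counts lay between 12576374 and 13658352 in each library. Replicates were further apart in GM than in DM: among 10656 genes averaging 50 counts or more, log2 ratios of B to A had an SD of 0.312 with DMSO and 0.281 with PFI-3 in GM, against 0.131 to 0.14 in the 4 DM groups. The label of muscle cells was checked on 8 muscle markers, all listed. Their summed level was 792 to 814 CPM (counts scaled to the library total) in GM with DMSO, 497 to 622 in GM with PFI-3, 3629 to 3630 at DM 24h with DMSO, 2066 to 2083 at DM 24h with PFI-3, 16989 to 17135 at DM 48h with DMSO and 11804 to 12247 at DM 48h with PFI-3. Of 10 markers of endothelial, immune, epithelial, fat and nerve cells, 7 had at most 3 counts in every library. The exceptions were Tubb3, Cd68 and Cdh5. The 10 together moved with stage and treatment, mainly through Tubb3. They summed to 71.4 to 72.3 CPM with DMSO and 43.7 to 50.9 with PFI-3 in GM, to 24.2 to 26.4 and 11.1 to 11.4 after 24 h of DM, and to 19.1 to 22.2 and 8.62 to 9.53 after 48 h. Tubb3 held most of this sum in every group, with 66.55 and 68.43 CPM in GM with DMSO. Cd68 and Cdh5 did not follow it throughout. At DM 24h both PFI-3 libraries of Cd68 were above both DMSO ones. With DMSO both DM 48h libraries of Cdh5 were above both GM ones. The part of either marker list in the results on deacetylases was not tested. In such bulk samples a smaller number of cells of a kind and less RNA per cell cannot be told apart.

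Levels of different genes were compared per transcript length, as FPKM, which divides fragments by transcript length and by library depth. In proliferating DMSO cells Hdac1 led with 71.5 ± 2.89 FPKM (mean ± SD, n = 2), and Hdac2 had 68.8 ± 2.02, with overlapping libraries. Hdac3 followed with 62.0 ± 1.39 and Hdac7 with 38.1 ± 2.83. Hdac5, with 15.9 ± 6.95, overlapped Hdac6, with 11.2 ± 1.06. Hdac4 had 4.98 ± 0.841, Hdac8 2.93 ± 0.453 and Hdac11 0.625 ± 0.276, and Hdac9 was lowest with 0.07 ± 0.0566.

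At DM 48h with DMSO the order was different. Hdac2 led with 63.3 FPKM, Hdac3 had 44.9, Hdac5 43.1, Hdac11 36.4 and Hdac1 33.6. Hdac7 followed with 19.3, Hdac4 with 9.15, Hdac6 with 8.27, Hdac8 with 4.20 and Hdac9 with 1.44. Hdac1 thus stood in the first place of 10 in GM and in the fifth at DM 48h, and Hdac11 moved from the ninth place to the fourth. With PFI-3 at DM 48h the order was Hdac2 with 62.9, Hdac3 with 50.7, Hdac1 with 45.5, Hdac5 with 34.3 and Hdac11 with 27.6 FPKM.

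**Figure D1:**
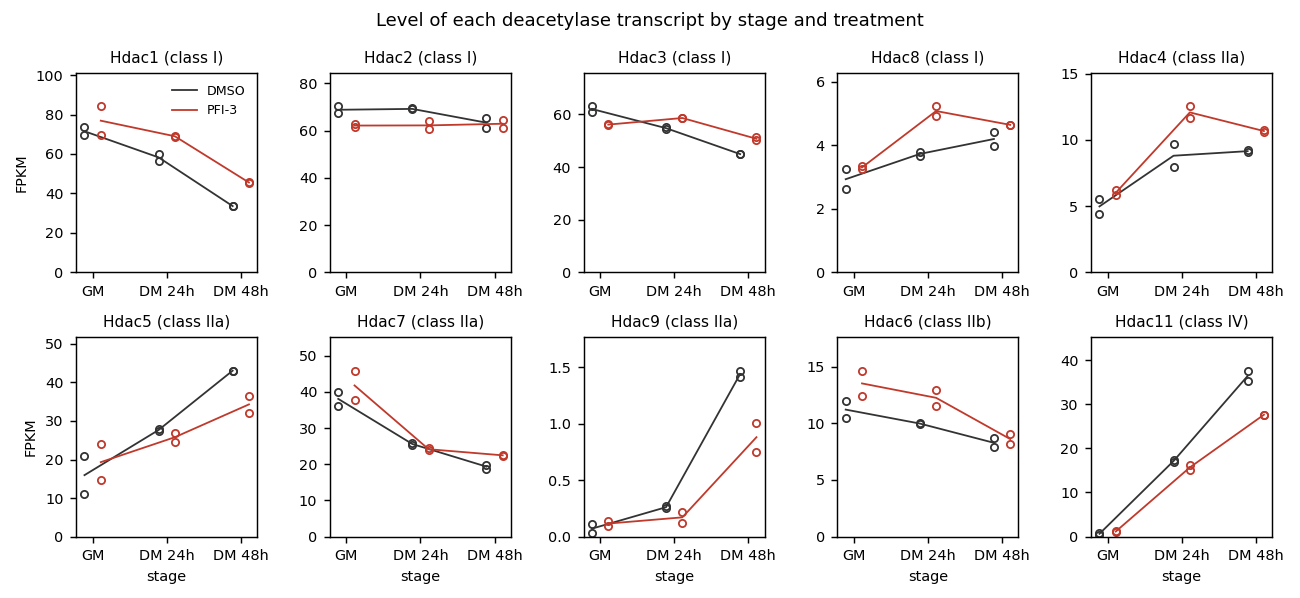
FPKM of each of the 10 genes in each library (circles) over the 3 stages, with lines through the means of the 2 libraries for DMSO (dark) and PFI-3 (red); each panel has its own vertical axis from 0. Hdac11 rises from 0.625 FPKM in GM to 36.4 at DM 48h with DMSO, while Hdac1 goes from 71.5 to 33.6 and the means of Hdac2 with DMSO lie between 63.3 and 69.2.

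Summed over the 10 genes, the FPKM level stayed close to the same value while its makeup shifted. With DMSO the sum was 276.1 ± 13.1 FPKM in GM, 275.3 ± 1.37 after 24 h and 263.7 ± 4.03 after 48 h. The share of class I in that sum was 74.4% ± 1.09 in GM, 67.5% ± 0.63 after 24 h and 55.4% ± 0.12 after 48 h. The share of Hdac11 was 0.2% ± 0.09, 6.2% ± 0.20 and 13.8% ± 0.44. Class IIa held 21.4% ± 0.81, 22.6% ± 0.37 and 27.7% ± 0.72, and Hdac6 held 4.1%, 3.6% and 3.1%. With PFI-3 at DM 48h class I held 61.0% ± 0.50, class IIa 25.5% ± 0.59 and Hdac11 10.3% ± 0.23 of a sum of 268.3 ± 6.41. At that stage both PFI-3 libraries were above both DMSO libraries in the class I share and below them in the shares of class IIa and Hdac11. These sums and shares are descriptions without a test, and rescaling each library to the same summed FPKM, as in TPM units, gives the 10 genes 571.1 ± 27.2, 622.8 ± 3.44 and 583.2 ± 6.21 with DMSO, so the sum does not keep its order of stages.

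**Figure D2:**
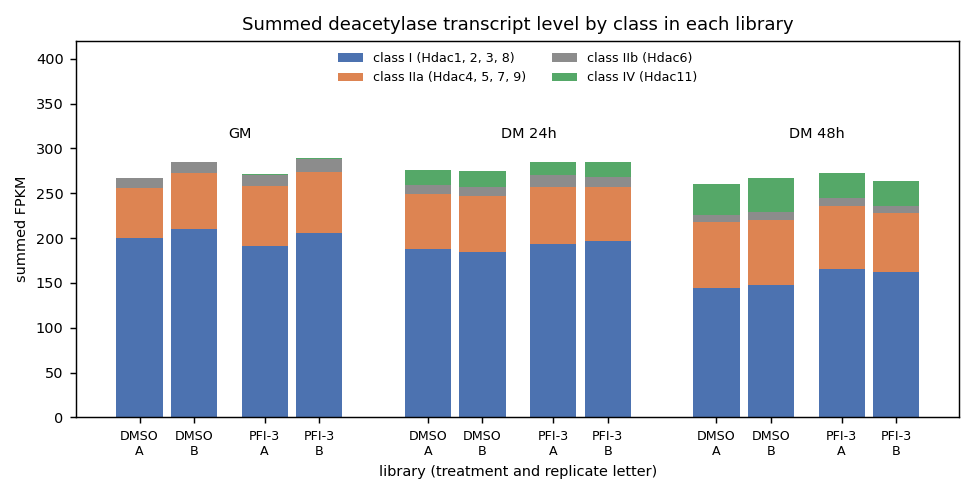
Stacked bars of summed FPKM by class in each of the 12 libraries, named by treatment and replicate letter and grouped by stage; bars start at 0. The class I share falls from 74.4% in GM to 55.4% at DM 48h with DMSO and stands at 61.0% at DM 48h with PFI-3, and Hdac11 grows from 0.2% to 13.8% with DMSO.

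The first comparison asked how each gene changed as DMSO-treated cells differentiated. A gene was called where the adjusted p-value of edgeR's quasi-likelihood test was under 0.05 over all genes tested. From GM to DM 48h, 5 of the 10 genes rose (Hdac4, Hdac5, Hdac8, Hdac9 and Hdac11) and 4 fell (Hdac1, Hdac3, Hdac6 and Hdac7), where 73.1% of all genes tested were called. Their median log2 fold change was 0.21, against 0.026 over all genes tested. Hdac2 was not called. The libraries of GM and DM 48h did not overlap for any of the 10 genes, as for 86.0% of all genes tested. From GM to DM 24h 4 rose and 3 fell (60.6% of all genes were called), and from DM 24h to DM 48h 3 rose and 3 fell (48.1%). These comparisons share libraries.

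**Figure D3:**
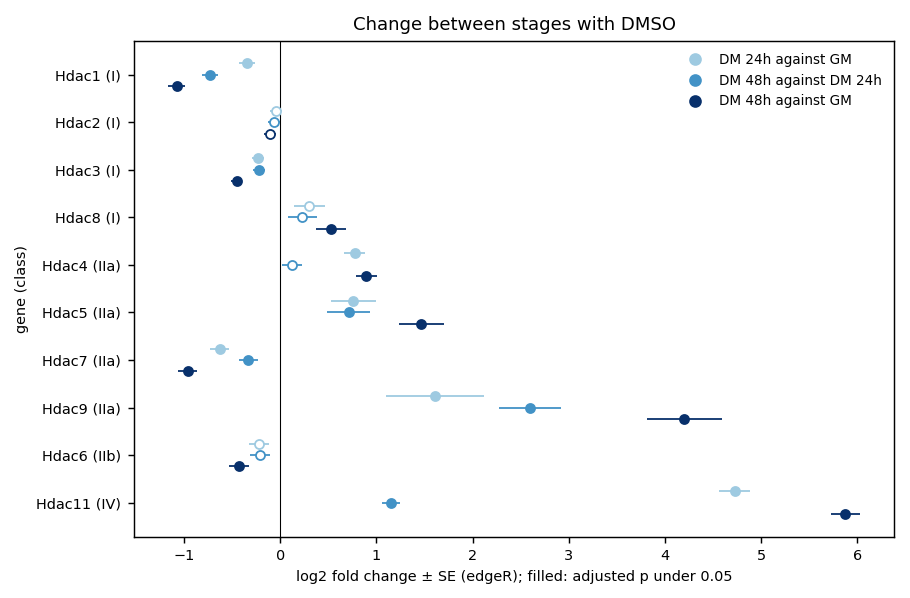
Log2 fold change with its standard error (horizontal bars) for each gene between stages with DMSO, from edgeR; filled circles have an adjusted p under 0.05. Hdac11 lies at 4.72 for DM 24h against GM and 5.88 for DM 48h against GM, and Hdac9 at 4.20 for the latter. Hdac1, Hdac3 and Hdac7 lie below 0 with a call in all 3 comparisons. Hdac2 and Hdac6 also lie below 0 in all 3, Hdac2 without a call and Hdac6 called only for DM 48h against GM.

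Of the class I genes, Hdac1 had 140.4 and 140.7 CPM in GM, 113.5 and 107.5 after 24 h of DM and 66.8 and 66.3 after 48 h. The 3 stages did not overlap, and each was below the one before. Hdac1 fell within 24 h (log2 fold change -0.35, SE 0.083, adjusted p = 0.00319) and again from DM 24h to DM 48h (-0.73, SE 0.086, adjusted p = 2.1e-05), a change of -1.08 over 48 h (SE 0.085, adjusted p = 2.04e-07). Hdac3, the deacetylase of a nuclear receptor corepressor complex, had 125.6 and 122.7 CPM in GM, then 106.1 and 105.3 in the DM 24h libraries and 90.2 and 90.9 in those of DM 48h. Its stages were separate in the same downward order, with a log2 fold change of -0.46 over 48 h (SE 0.058, adjusted p = 1.63e-05).

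Hdac2, the close paralog of Hdac1, had 138.5 and 136.6 CPM in GM, 132.7 and 134.3 after 24 h of DM and 123.3 and 132.0 after 48 h. The stages did not overlap, but the differences were small beside the estimated error: its log2 fold change over 48 h was -0.11 (SE 0.064, adjusted p = 0.146). Hdac8, the X-linked class I gene, had 4.62 and 5.46 CPM in GM, then 6.10 and 6.35 in the DM 24h libraries and 7.73 and 6.87 in those of DM 48h. Its DM 48h libraries were both above the GM ones, and it rose over 48 h (log2 fold change 0.53, SE 0.158, adjusted p = 0.00914). That call was not kept by the DESeq2 Wald test (adjusted p = 0.0874), or without library A of GM with DMSO or library A of DM 48h with DMSO (adjusted p up to 0.0713).

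In class IIa, 3 genes rose over 48 h and Hdac7 fell. Hdac7 had 178.4 and 151.7 CPM in GM, 106.8 and 106.3 after 24 h of DM and 87.1 and 82.2 after 48 h. The stages were separate, and the log2 fold change over 48 h was -0.96 (SE 0.098, adjusted p = 2.05e-06). Hdac4 had 37.6 and 45.1 CPM in GM, then 63.5 and 78.0 in the DM 24h libraries and 77.3 and 76.3 in those of DM 48h. Both DM stages were above GM and overlapped each other. Hdac4 rose within 24 h (log2 fold change 0.77, SE 0.108, adjusted p = 6.21e-05), and the step from DM 24h to DM 48h was not called (0.12, SE 0.104, adjusted p = 0.382).

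Hdac5 had 44.9 and 79.7 CPM in GM, 106.5 and 104.7 after 24 h of DM and 173.1 and 172.3 after 48 h. The GM libraries were far apart and the DM ones close together, and each stage lay above the one before. Hdac5 rose within 24 h (log2 fold change 0.76, SE 0.235, adjusted p = 0.0146) and by 1.47 over 48 h (SE 0.234, adjusted p = 0.000109). The 24 h value was 1.23 without library B of GM with DMSO. Its call was not kept without library A of that group (0.40), or without either DM 24h library with DMSO (adjusted p up to 0.0963). In RefSeq (GRCm38.p6) a MEF2 consensus site, the kind of site that MEF2 proteins bind, begins 20 bases before the start of Hdac5. Such a site was found on either strand in the 250 bases before 2.92% of 32851 starts in the table, and at 1 of the 12 starts of the 8 members it holds. The 250 bases before the start are shown because they hold that site. They are chr11:102230173-102230422 on the minus strand, and capitals mark the CANNTG match (an E-box, the kind of site that MyoD and myogenin bind) and the MEF2 consensus.

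Hdac5: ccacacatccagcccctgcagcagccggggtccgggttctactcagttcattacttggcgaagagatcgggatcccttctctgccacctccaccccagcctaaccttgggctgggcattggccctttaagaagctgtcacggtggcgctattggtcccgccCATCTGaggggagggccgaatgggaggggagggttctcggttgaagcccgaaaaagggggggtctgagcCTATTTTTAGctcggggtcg

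Hdac9 was nearly silent before DM 48h. It had 2 and 8 counts in GM, then 14 and 16 in the DM 24h libraries and 87 and 88 in those of DM 48h, or 0.16 and 0.59, 1.11 and 1.24, and 7.08 and 7.20 CPM. All DM 48h libraries with DMSO were above all earlier ones. Hdac9 rose by a log2 fold change of 2.59 from DM 24h to DM 48h (SE 0.322, adjusted p = 3.5e-05) and by 4.20 over 48 h (SE 0.390, adjusted p = 9.24e-07). The latter rests on the few GM counts: it was 5.42 without library B of GM with DMSO and 1.19 with limma on log2(FPKM + 1), both called. The rise from GM to DM 24h (1.61, SE 0.507, adjusted p = 0.0161) was not kept in a fit of only the 4 libraries compared, or without library A of GM with DMSO or library B of DM 24h with DMSO (adjusted p up to 0.127). Its deposited length moved between 4461 and 6096 bases among libraries, so its FPKM also moves with length, and CPM is used for its comparisons.

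Among the 8 members with a promoter window, those whose windows hold the E-box CAGCTG are Hdac9 and Hdac11, the genes with the widest range of group means over the 6 groups. It reads the same on both strands, every CAGCTG is also a CANNTG, and 13% of all 32851 starts have one in the 250 bases before the start, while 66.2% have a CANNTG. Of the 12 member starts, 3 have a CAGCTG and 7 a CANNTG. Hdac1 and Hdac3 have no window to search. For Hdac9 a CAGCTG stands at both starts in the table. The first is shown with its whole window, chr12:34917096-34917345 on the minus strand, with its match 89 bases before the start. The second is an internal start and is shown as the 30 bases at chr12:34529055-34529084 on the minus strand, with the match 183 bases before it. The Hdac11 match, 104 bases before the start used for its window, is shown as the 30 bases at chr6:91156699-91156728 on the plus strand. These bases lie just inside the RefSeq gene span of Hdac11, chr6:91156670-91174692. Capitals mark CAGCTG and, in the longer window, 1 further CANNTG. A match of letters is a description and not a shown binding site.

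Hdac9, first start: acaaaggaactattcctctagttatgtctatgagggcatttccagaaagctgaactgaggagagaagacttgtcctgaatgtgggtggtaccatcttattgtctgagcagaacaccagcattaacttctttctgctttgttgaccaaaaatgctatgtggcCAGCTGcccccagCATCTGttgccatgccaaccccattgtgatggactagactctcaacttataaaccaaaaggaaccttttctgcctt
Hdac9, second start: atagaggctggaCAGCTGgctttggtgggg
Hdac11: tcgtctgtgacgCAGCTGcaggccagagct

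Of the remaining classes, Hdac6, the tubulin deacetylase, had 44.8 and 48.4 CPM in GM, 39.5 and 40.5 after 24 h of DM and 33.0 and 36.2 after 48 h. Its stages did not overlap, and it fell over 48 h (log2 fold change -0.43, SE 0.103, adjusted p = 0.00252), while neither single step was called. Hdac11 showed the widest range. It had 14 and 27 counts in GM, then 511 and 547 in the DM 24h libraries and 1093 and 1163 in those of DM 48h, or 1.10 and 1.99, 40.5 and 42.3, and 88.9 and 95.1 CPM. Every stage was far above the one before. Hdac11 rose by 4.72 on the log2 scale at DM 24h (SE 0.159, adjusted p = 2.7e-10) and by a further 1.15 to DM 48h (SE 0.096, adjusted p = 1.17e-06). Without library B of GM with DMSO the first value was 5.23, and with limma on log2(FPKM + 1) it was 3.49, both called. Exons of Hdac11 share 594 bases (15.4% of its exon bases) with the opposite-strand model Gm44002 and 96 bases (2.5%) with Gm14573 in GENCODE M21. For Hdac4 22.4% is shared with Gm26720. Whether the counting used strand is not given in the sources used here, so reads of these partners cannot be told apart.

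The second comparison asked what PFI-3 did at each stage, against DMSO at that stage. In GM 2 of 10 genes were called, both lower (Hdac2 and Hdac3), where 11.6% of all genes tested were called. At DM 24h 2 were called, Hdac4 higher and Hdac2 lower, where 23.6% of all genes were. At DM 48h 3 were called, Hdac1 higher and Hdac9 and Hdac11 lower, where 27.4% of all genes were. The counts of 2, 2 and 3 of 10 lie near those shares. The libraries of the 2 treatments did not overlap for 3 genes in GM, all 10 at DM 24h and 8 at DM 48h, where 45.4%, 70.5% and 71.3% of all genes did not. The median log2 fold change of the 10 was 0.12, -0.04 and 0.01 at the 3 stages, against -0.010, -0.001 and 0.001 over all genes.

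**Figure D4:**
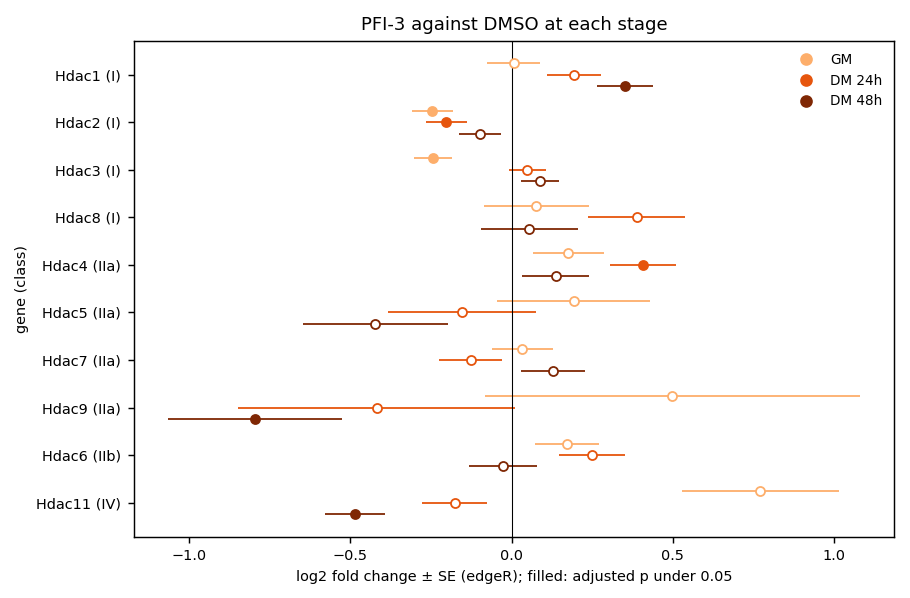
Log2 fold change of PFI-3 against DMSO with its standard error (horizontal bars) for each gene at the stages GM, DM 24h and DM 48h, from edgeR; filled circles have an adjusted p under 0.05. Hdac2 is called at -0.25 in GM and -0.20 at DM 24h, Hdac3 at -0.24 in GM, Hdac4 at 0.41 at DM 24h, and Hdac1 at 0.35, Hdac11 at -0.49 and Hdac9 at -0.80 at DM 48h.

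Among class I genes, Hdac1 with PFI-3 had 127.4 and 154.8 CPM in GM, 127.1 and 125.8 after 24 h of DM and 84.4 and 85.3 after 48 h. The PFI-3 libraries straddled the DMSO ones (140.4 and 140.7) in GM and were above them after 24 h of DM (113.5 and 107.5) and after 48 h (66.8 and 66.3). The log2 fold change was 0.01 in GM (adjusted p = 0.982) and 0.19 after 24 h of DM (SE 0.083, adjusted p = 0.112), neither called, and 0.35 at DM 48h (SE 0.086, adjusted p = 0.00986). The DM 48h call was kept under all 10 alternative settings, and lost when any 1 of the 4 DM 48h libraries was left out (adjusted p up to 0.0686).

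Hdac2 with PFI-3 had 116.8 and 115.1 CPM in GM, then 112.8 and 119.2 in the DM 24h libraries and 122.4 and 116.1 in those of DM 48h. In CPM all 6 of these libraries were below all 6 DMSO libraries of Hdac2, which ran from 123.3 to 138.5. The share of all genes separated in this way was not counted. In FPKM the treatments overlapped at DM 48h (61.25 and 65.44 with DMSO, 64.48 and 61.29 with PFI-3). Hdac2 was lower with PFI-3 in GM (log2 fold change -0.25, SE 0.064, adjusted p = 0.0291) and likewise 24 h into DM (-0.20, SE 0.064, adjusted p = 0.0388), and not called at DM 48h (-0.10, SE 0.064, adjusted p = 0.29). An additive fit that averages the stages called 24.1% of all genes and 2 of the 10, Hdac4 higher and Hdac2 lower (-0.18 for Hdac2, SE 0.044, adjusted p = 0.0102). With limma on FPKM this average of Hdac2 was -0.10 on log2(FPKM + 1) and lost its call (adjusted p up to 0.128). For single stages, the GM call of Hdac2 was lost in a fit of only the 4 GM libraries (adjusted p = 0.39) and with limma on FPKM (-0.145 on log2(FPKM + 1)), and the DM 24h call with the DESeq2 Wald test, without the low-count filter and on FPKM (adjusted p up to 0.143). It was also lost in 5 of 12 fits that left out 1 library in GM and in 8 of 12 at DM 24h.

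Hdac3 with PFI-3 had 104.2 and 105.4 CPM in GM, 109.3 and 109.4 after 24 h of DM and 97.4 and 95.1 after 48 h. These lay below the DMSO libraries in GM and above them at both DM stages. The fall in GM was called (log2 fold change -0.24, SE 0.058, adjusted p = 0.0202), and was lost in a fit of only the GM libraries (adjusted p = 0.394), with limma on FPKM (-0.142 on log2(FPKM + 1)), and without library A of GM with PFI-3 (adjusted p = 0.05). The values at DM 24h (0.05, adjusted p = 0.585) and DM 48h (0.09, adjusted p = 0.3) were not called. Hdac8 was not called at any stage. Its largest value was at DM 24h, where the PFI-3 libraries had 7.91 and 8.39 CPM against 6.10 and 6.35 (log2 fold change 0.39, SE 0.151, adjusted p = 0.0838).

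Among class IIa genes, Hdac4 with PFI-3 had 45.0 and 48.5 CPM in GM, then 97.4 and 90.5 in the DM 24h libraries and 85.1 and 83.7 in those of DM 48h. At DM 24h both libraries were above the DMSO ones (63.5 and 78.0), and Hdac4 was higher with PFI-3 (log2 fold change 0.41, SE 0.103, adjusted p = 0.0142). This was lost without library A of either DM 24h group (adjusted p up to 0.154). Neither the GM value (0.17, adjusted p = 0.32) nor the DM 48h one (0.14, adjusted p = 0.368) was called. The average over stages was 0.24 (SE 0.071, adjusted p = 0.0272), and was lost without library A of DM 24h with DMSO or either DM 24h library with PFI-3 (adjusted p up to 0.0704).

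Hdac5 with PFI-3 had 53.5 and 89.0 CPM in GM, 99.2 and 90.7 after 24 h of DM and 137.4 and 120.2 after 48 h. In GM the treatments overlapped, while each PFI-3 library was above the DMSO library of its letter (44.9 for A and 79.7 for B). At DM 48h both PFI-3 libraries were well below the DMSO ones (173.1 and 172.3). The DM 48h value of -0.42 was not called in the fit of all 12 libraries (SE 0.225, adjusted p = 0.191), whose shared spread includes the GM pairs. In a fit of only the 8 DM libraries, added after the data were seen, it was -0.43 with an SE of 0.053 (adjusted p = 5.74e-09), in a fit that called 4 of the 10 members and 47.2% of all genes at DM 48h. At DM 24h that fit called 6 of 10 (Hdac1, Hdac2, Hdac4, Hdac5, Hdac6 and Hdac8) and 44.7% of all genes, and gave Hdac5 a value of -0.15 (SE 0.057, adjusted p = 0.0333).

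Hdac9 with PFI-3 had 8 and 7 counts in GM, then 9 and 14 in the DM 24h libraries and 44 and 61 in those of DM 48h. At DM 48h this was 3.45 and 4.76 CPM against 7.08 and 7.20 with DMSO, without overlap. Hdac9 was lower (log2 fold change -0.80, SE 0.269, adjusted p = 0.0456). The DESeq2 Wald test did not make this call (adjusted p = 0.202), nor did limma on log2(FPKM + 0.1), and it was lost in 8 of 12 fits that left out 1 library. Hdac7 with PFI-3 had 185.1 and 152.5 CPM in GM, 98.8 and 96.3 after 24 h of DM and 93.5 and 91.5 after 48 h, and was not called at any stage (adjusted p from 0.374 to 0.86).

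Hdac6 with PFI-3 had 47.9 and 56.9 CPM in GM, then 50.2 and 44.9 in the DM 24h libraries and 35.7 and 32.2 in those of DM 48h. The treatments overlapped in GM and at DM 48h, and at DM 24h, where they did not (39.5 and 40.5 with DMSO), the value of 0.25 did not reach a call (SE 0.102, adjusted p = 0.0971). Hdac11 with PFI-3 had 2.91 and 2.42 CPM in GM, 35.5 and 37.8 after 24 h of DM and 65.9 and 65.5 after 48 h. The PFI-3 libraries were above the DMSO ones in GM and below them at both DM stages, without overlap. Hdac11 was lower by DM 48h (-0.49 on the log2 scale, SE 0.093, adjusted p = 0.00222), and this call was kept in all 12 fits that left out 1 library. It was lost on log2(FPKM + 0.1) with limma (adjusted p = 0.217). Neither the GM value (0.77, SE 0.244, adjusted p = 0.0617) nor the DM 24h one (-0.18, SE 0.10, adjusted p = 0.227) was called. At DM 48h the summed muscle markers were, like Hdac9 and Hdac11, lower with PFI-3 (16989 to 17135 CPM with DMSO, 11804 to 12247 with PFI-3). In GM the sum was also lower with PFI-3 (792 to 814 against 497 to 622), while Hdac11 was above its DMSO libraries. The markers did not all move that way in GM. Des and Cdh15, which hold much of the GM sum, were below their DMSO libraries. Myog (0.16 and 0.37 CPM with DMSO, 0.44 and 0.85 with PFI-3) and Myh3 (0.47 and 0.59, then 0.80 and 1.07) were above theirs, at very low levels. A link between the markers and these genes was not tested.

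Whether the PFI-3 effect differed between stages was tested as an interaction. Cells in GM were treated for 12 h and those in DM for a further 24 h or 48 h. Stage and length of treatment therefore cannot be told apart. Between GM and DM 48h the PFI-3 effect differed for 2 of 10 genes, in a comparison that called 14.5% of all genes tested. For Hdac11 the effect at DM 48h minus that in GM was -1.26 (SE 0.260, adjusted p = 0.00717), and for Hdac3 it was 0.33 (SE 0.082, adjusted p = 0.0188). Over the other settings the Hdac11 value ran from -1.76 to -0.79. Its GM part rests on 14 to 40 counts per library. The Hdac11 call was kept under all 9 alternatives and all 12 fits that left out 1 library. That of Hdac3 was lost with the DESeq2 Wald test, in a fit of only the libraries compared, and without any 1 of the 4 DM 48h libraries (adjusted p up to 0.0914). For Hdac1 it was 0.35 (SE 0.119, adjusted p = 0.075), not called. Between GM and DM 24h, 0 of 10 were called by edgeR (2 at an unadjusted p under 0.05), where 3.37% of all genes were. The DESeq2 Wald test and limma also called 0 there. Between DM 24h and DM 48h 0 of 10 were called (1 at an unadjusted p under 0.05), where 12.1% of all genes were, and DESeq2 and limma called 0. In the fit of the 8 DM libraries the latter comparison called 5 of 10 (Hdac4, Hdac5, Hdac6, Hdac7 and Hdac11), where it called 33.6% of all genes.

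The stage changes of PFI-3-treated cells use other libraries than those of DMSO-treated cells. From GM to DM 24h with PFI-3, 3 genes rose (Hdac4, Hdac8 and Hdac11) and 1 fell (Hdac7), where 60.3% of all genes were called. From DM 24h to DM 48h 2 rose (Hdac9 and Hdac11) and 3 fell (Hdac1, Hdac3 and Hdac6), where 27.3% were called. Hdac11 rose by 3.78 and then 0.84 on the log2 scale, where the DMSO values were 4.72 and 1.15. Hdac1 had values of -0.16 (adjusted p = 0.114) and -0.58 (adjusted p = 0.000327) with PFI-3, against -0.35 and -0.73 with DMSO. Differences between these values are the interactions for DM 24h minus GM and for DM 48h minus DM 24h. For Hdac11 they were -0.95 (adjusted p = 0.0737) and -0.31 (adjusted p = 0.175). For Hdac1 they were 0.19 (adjusted p = 0.451) and 0.16 (adjusted p = 0.443). None of these was called in the fit of 12 libraries.

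The protein partners of these enzymes were described from lists of genes. Of 36 genes of the HDAC1 and HDAC2 complexes, 14 rose and 14 fell from GM to DM 48h with DMSO, where 73.1% of all genes were called, with a median log2 fold change of -0.07 against 0.026 over all genes. Rcor2, a CoREST scaffold protein, rose from 28.3 to 80.4 CPM, and Mbd3, a NuRD subunit, fell from 185 to 97.0. With PFI-3, 1 of the 36 was called higher and 3 lower for GM, 2 and 2 for DM 24h, 7 and 4 for DM 48h, where 11.6%, 23.6% and 27.4% of all genes were called (medians -0.03, -0.04 and -0.00). Chd3, a NuRD helicase, was lower in GM (353 to 218 CPM, log2 fold change -0.69, adjusted p = 0.000974) and at DM 48h (563 to 403, -0.48, adjusted p = 0.00232). At DM 48h Rcor2 was lower (80.4 to 47.4 CPM, -0.76, adjusted p = 0.000263), and the Sin3 complex genes Sap18 (18.3 to 26.6) and Sap130 (94.3 to 132) were higher.

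Of 8 genes of the HDAC3 complex, 5 rose and 1 fell from GM to DM 48h with DMSO, where 73.1% of all genes were called (median 0.39, against 0.026 over all genes). With PFI-3, 3 of the 8 were lower at each DM stage, where 23.6% and 27.4% of all genes were called (medians -0.09 and -0.03). In GM edgeR called 0 of the 8 (1 at an unadjusted p under 0.05), as did the DESeq2 Wald test and limma. Gps2, a subunit of the complex, was among them at DM 24h, where it went from 48.4 to 37.9 CPM (-0.35, adjusted p = 0.00757).

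Of 28 tested genes that regulate class IIa proteins, mainly kinases and 14-3-3 proteins, 9 rose and 12 fell from GM to DM 48h with DMSO, near the 73.1% of all genes called (median 0.02). With PFI-3, 2 were called higher and 4 lower for GM, 5 and 8 for DM 24h, 5 and 3 for DM 48h, where 11.6%, 23.6% and 27.4% of all genes were called (medians -0.03, -0.10 and 0.00). Camk2a, a calcium-dependent kinase, was at 0.30 CPM in GM and 181 at DM 48h with DMSO. It was lower with PFI-3 at DM 24h (19.8 to 7.12 CPM, -1.47, adjusted p = 6.89e-06) and at DM 48h (181 to 109, -0.73, adjusted p = 5.46e-05). Dnajb5, a chaperone that binds class IIa proteins, was lower at DM 24h (44.2 to 19.7 CPM, -1.16, adjusted p = 6.26e-06). Camk1d was higher at all 3 stages, from 10.3 to 15.7 CPM in GM, 4.11 to 7.28 at DM 24h and 2.98 to 6.02 at DM 48h.

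The MEF2 genes, whose proteins class IIa deacetylases bind, rose over 48 h with DMSO. Mef2a went from 102 to 573 CPM, Mef2c from 0.22 to 72.6 and Mef2d from 140.5 to 480.7, all called. With PFI-3 at DM 48h, Mef2c was lower (72.6 to 13.3 CPM, log2 fold change -2.45, adjusted p = 2.35e-06), as was Mef2d (480.7 to 339.6, -0.50, adjusted p = 0.000186). Mef2a was slightly higher there (573 to 655, 0.19, adjusted p = 0.0495), but lower with PFI-3 at DM 24h (520.8 to 373.2, -0.48, adjusted p = 0.000384). Also lower at DM 24h were Mef2d (243.5 to 186.8, -0.38, adjusted p = 0.00206) and Mef2c (1.34 to 0.30, -2.09, adjusted p = 0.0227). In GM no MEF2 gene named here was called with PFI-3. Of the genes of the PFI-3 targets, Smarca2 was higher with PFI-3 in GM (24.0 to 38.2 CPM) and at DM 24h (52.6 to 78.1), Smarca4 was higher at DM 48h (277 to 349), and Pbrm1 was not called at any stage.

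The genes most like 3 members in pattern were sought by Pearson correlation of log2(CPM + 1) over the 12 libraries, which share stage, so these values are descriptions. For Hdac11 they were Iffo1 (r = 0.997), Gramd1b (0.995) and Svil (0.995), and 699 of 10366 genes reached 0.95. For Hdac9 they were the muscle genes Ankrd2 (0.988) and Myoz2 (0.987) and the kinase gene Fn3k (0.986), and 190 of 10367 reached 0.95. Ankrd2 went from 0 CPM in GM to 41.9 at DM 48h with DMSO and stood at 17.6 with PFI-3. For Hdac5 they were Smarcal1 (0.975), Mdh1 (0.968) and Tob1 (0.967), and 25 of 10366 reached 0.95.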

How the data were processed

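RNA sequencing of 12 libraries (2 in each of 6 groups) was used. The authors deposited 1 table per library with expected counts and FPKM values per gene, per the file headers. Library preparation, sequencing and later processing were done by a provider, per the labels. HISAT, StringTie, Cufflinks, Bowtie, RSEM and DESeq2 and the build mm10 are named, without roles, in the submitters' processing notes. How strand was used in counting is not given in the sources used here. Between 93.3% and 93.7% of the deposited expected counts were whole (tolerance 0.001). A gene missing from a table was taken as 0.

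Counts were rounded to whole numbers and fitted in R 4.3.3 with the quasi-likelihood test of edgeR (version 4.0.16), TMM scaling and edgeR's low-count filter, with 6 group means over all 12 libraries. The Benjamini-Hochberg adjustment ran over 12545 genes, in 12 comparisons. The replicates' p-values measure the spread between duplicates of 1 cell line, and intervals of counting do not cover amplification. An exact permutation test of 2 against 2 libraries cannot go below p = 0.333 (two-sided) and was not used. CPM uses the TMM-scaled library total. Alternatives were the DESeq2 Wald test (1.42.0), size factors in the style of DESeq2, no filter, a stricter filter (a mean of 10 counts), limma (3.58.1) on log2(FPKM + 1) and log2(FPKM + 0.1), only the libraries compared, the replicate letter as a block, leaving out each library, and, added after seeing the data, only the 8 DM libraries. The tests were tested on simulated data first.

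All 10 genes are named in every comparison. Of each list the 2 largest called changes in a direction at a mean of at least 5 CPM could be named, and for the 3 members with the widest range the 3 genes most correlated with them. Smarca2, Smarca4, Pbrm1 and the MEF2 genes were named as partners. The values of 1 listed gene are not reported here. The members and lists were chosen with earlier results of these data known. Promoters came from the RefSeq table for GRCm38.p6, which was matched by symbol for 8 of 10 members. Hdac1 and Hdac3 were not matched. Exon overlaps came from GENCODE M21.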

Additional observations from a re-analysis of the deposited data

Results flagged for a closer look

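For 2 of the 10 genes the interaction test of edgeR called a difference in PFI-3 effect between GM and DM 48h, and it called 14.5% of all genes there. The stages also differ in length of treatment, which cannot be told apart from stage. For DM 24h against GM the edgeR test called 0 of 10 (2 at an unadjusted p under 0.05), as did the DESeq2 Wald test and limma. For Hdac11, the class IV gene, the log2 fold change with PFI-3 at DM 48h minus that in GM was -1.257. Both PFI-3 libraries lay above the DMSO ones in GM, at 14 and 27 counts with DMSO against 40 and 34, and below them at DM 48h, at 1093 and 1163 against 841 and 839. For Hdac3 the difference was 0.332, with the effect called in GM and not at DM 48h. That difference lost its call with the DESeq2 Wald test, in a fit of only the libraries compared, and without any 1 of the 4 DM 48h libraries (adjusted p up to 0.0914).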

How the results depend on the processing

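No called value of the 10 genes changed direction in 2554 values recomputed under other settings or without 1 library: 92 lost their call and 84 gained one. The 46 changes of sign were all in values without a call. Of 256 recomputed counts of called members, 209 stayed within 1.5 times. For PFI-3 in GM (2 called), limma gave 1 on log2(FPKM + 1), which was Hdac11, and 0 on log2(FPKM + 0.1), and a fit of only the libraries compared gave 0. At DM 24h (2 called), the DESeq2 Wald test and no low-count filter gave 1 each, only the libraries compared gave 7, and the 8 DM libraries gave 6. Over all genes the fit of the libraries compared called 5583 and that of the 8 DM libraries 5525. The fit of 12 libraries called 2966. For the change in the PFI-3 effect from DM 24h to DM 48h (0 called), both of the smaller fits gave 5. Each called 4154 of all genes there, where the fit of 12 libraries called 1517. For DM 48h minus GM (2 called), the DESeq2 Wald test and only the libraries compared gave 1 each. For the average over stages (2 called), limma on log2(FPKM + 1) gave 4, without Hdac2. FPKM was fitted without TMM scaling. On log2(FPKM + 1) the median PFI-3 change over all genes was 0.063 (GM), 0.036 (DM 24h), 0.071 (DM 48h) and 0.063 (average). The fit of 12 libraries gave -0.01, -0.001, 0.001 and -0.003. For the average, limma on log2(FPKM + 1) called 2503 genes higher and 907 lower, against 1409 and 1617. The part of this shift in the calls of members was not tested. The cause of the other differences was not tested, beyond that fits without GM leave out its wider replicates.

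Same-letter libraries of the treatments had correlations of 0.509 (GM), 0.036 (24 h) and 0.052 (48 h): the letters moved together in GM and not in DM, and what a letter marks is not given in the labels. The block raised the calls over all genes from 32 to 741 in a fit of only the GM libraries. With the replicate letter as a block in the fit of 12 libraries, the counts were unchanged: 2, 2 and 3 for PFI-3 over the 3 stages, 7, 6 and 9 for the DMSO stages (24 h to GM, 48 h to 24 h, 48 h to GM), 4 and 5 with PFI-3, 0, 0 and 2 for the stage differences and 2 for the average. That block is a single letter term shared by all stages. It cannot follow a letter difference seen only in GM, so the unchanged counts do not test the pairing there. With the block and only the libraries compared, the counts were 0, 8 and 6 for PFI-3, and 5 for DM 48h minus DM 24h. Over all genes those fits called 741, 5719 and 6034 for PFI-3, and 4336 for that difference.

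Leaving out 1 library gave 0 to 4 called in GM, 0 to 3 at DM 24h and 1 to 4 at DM 48h for PFI-3. It gave 5 to 8, 4 to 6 and 8 to 9 for the DMSO stages, 4 to 6 and 3 to 6 for the PFI-3 stages, and 1 to 4 for the average. For the stage differences it gave 0 to 2 (DM 24h minus GM), 0 to 1 (DM 48h minus DM 24h) and 1 to 4 (DM 48h minus GM). The number called over all genes also moved with the library left out. Depth limits Hdac9 in GM and at DM 24h, at 2 to 16 counts per library, and Hdac11 in GM, at 14 to 40.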

Other observations

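Among other enzymes of lysine acetylation, Hdac10, the class IIb gene that is not a member, fell from 17.9 ± 1.68 CPM (SD, n = 2) in GM to 9.34 ± 0.711 at DM 48h with DMSO (log2 fold change -0.94, edgeR adjusted p = 4.61e-05), and its PFI-3 value at DM 48h was not called (0.40, adjusted p = 0.0514). Of the 7 sirtuins, the NAD-dependent class III, 4 rose and 2 fell over 48 h with DMSO, where 73.1% of all genes were called. Sirt2, a mainly cytoplasmic tubulin deacetylase, rose from 52.9 to 207 CPM. With PFI-3 it was higher in GM (52.9 to 69.2 CPM, adjusted p = 0.00499) and lower at DM 48h (207 to 164, log2 fold change -0.34, adjusted p = 0.00218).

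Of 16 histone acetyltransferase genes, 6 rose and 6 fell over 48 h with DMSO, near the 73.1% of all genes called (median log2 fold change -0.13 against 0.026 over all genes). Hat1, which acetylates newly made histone H4, fell from 92.8 to 19.0 CPM, and Ncoa1, a nuclear receptor coactivator, rose from 22.5 to 124. With PFI-3, 3 were lower at DM 24h, and 3 were higher and 1 lower at DM 48h, where 23.6% and 27.4% of all genes were called. In GM edgeR and the DESeq2 Wald test called 0 of the 16 (3 at an unadjusted edgeR p under 0.05), and limma on FPKM called 1. Ncoa1 was lower at DM 24h (110 to 79.8 CPM, -0.46, adjusted p = 0.000399), and Hat1 was higher at DM 48h (19.0 to 33.1, 0.80, adjusted p = 0.000166).

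Of 11 partners and substrates of Hdac6, 2 were lower with PFI-3 in GM, while 5 were lower and 2 higher after 24 h, and 2 lower and 2 higher after 48 h. The shares of all genes called at these stages were 11.6%, 23.6% and 27.4%. The alpha-tubulin gene Tuba1a was lower at all 3 stages: 2126 to 1588.5 CPM in GM, 2758 to 1488 at DM 24h (-0.89, adjusted p = 1.84e-06) and 1954 to 1412 at DM 48h. Tuba4a went from 113 to 71.7 CPM at DM 24h and from 246 to 158.5 at DM 48h, both called.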
